A study of Mus musculus with 4 samples.

Results

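The 10 genes described here make the machinery that shows peptides from inside the cell on MHC class I molecules: H2-K1, H2-D1, B2m, Tap1, Tap2, Tapbp, Psmb8, Psmb9, Psmb10 and Nlrc5. They were chosen by function, with earlier results of these data known. All 10 were found among the 21779 protein-coding genes of the mouse assembly GRCm38.p6. For each gene, every ChIP-seq summit lying inside it or within 20 kb of it was listed. A summit is the base of highest pile-up in a called peak. Of the 12445 summits in the 3 lists, 15 met that rule, 6 and 3 in p53 replicates 1 and 2 and 6 in the PPAR-alpha list.

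All libraries came from thymus of mice aged 4 weeks that carried the p53 AD allele in the germ line on both copies (p53 AD/AD), an allele whose protein is described as a dimer. Chromatin was precipitated for p53 in 2 libraries read at 50 nt and for PPAR-alpha, the receptor that switches on genes for burning fatty acids, in 1 library read at 75 nt. The input library of the same genotype was not analysed here, nor was any thymus without the AD allele or without either factor, so the lists describe 1 genotype and hold no comparison with a thymus that lacks p53. No label says whether the p53 libraries came from separate mice, and the PPAR-alpha library stands alone. Antibody and read length changed together and cannot be told apart.

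MHC class I molecules consist of a heavy chain, here from H2-K1 or H2-D1, and the small light chain beta-2 microglobulin, from B2m. Their peptides are cut by the proteasome, in which the inducible catalytic subunits from Psmb8, Psmb9 and Psmb10 can take the place of the standard ones, are pumped into the endoplasmic reticulum by the Tap1-Tap2 transporter, and are loaded with the help of tapasin, from Tapbp. Nlrc5 encodes a transactivator that works at class I promoters through a factor complex containing RFX, CREB and NF-Y proteins. In the thymus, class I molecules with their peptides select the CD8 lineage of T cells. TAP1 has been described as a p53 target in human cells.

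The lists held 3608 and 4767 summits for p53 replicates 1 and 2, and 4070 for PPAR-alpha. Each summit carries a score given by the authors, read here as −log10 of p or q, and most scores were low and fell on a few steps. The 6 commonest score values held 76.2%, 79.3% and 52.6% of the summits in the same order of lists. The number of reads behind the lists is unknown. As a check of the tissue, all 12 thymocyte genes looked at (such as Cd3e, Cd4, Cd8a, Lck and Rag1) had a summit within 20 kb in each of the 3 lists, where 9.93% of all protein-coding genes did. These are not 12 separate places, since Cd3d, Cd3e and Cd3g share summits, as do Rag1 and Rag2. Cd8a and Cd8b1 share some in p53 replicate 2 and PPAR-alpha. The closest summits of the 3 lists near Cd8a, Ptcra and Tcf7 lay at Rmnd5a, Rpl7l1 and Skp1. In p53 replicates 1 and 2 and in PPAR-alpha, 0, 2 and 1 of 8 thymic epithelium genes, 2, 1 and 2 of 5 B cell genes and 1, 1 and 2 of 6 myeloid genes had one, where 20.9%, 25.8% and 20.5% of all genes did. Summits do not measure expression, and the part that other cells of the thymus play in the values below was not tested.

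Which class I presentation genes had p53 or PPAR-alpha summits near them? Within 20 kb, p53 replicate 1 had summits at 6 of the 10 genes, where 20.9% of all protein-coding genes had one. For p53 replicate 2 it was 5 genes (25.8% of all genes), and for PPAR-alpha 7 genes (20.5% of all genes). H2-D1, Tap1, Tap2, Psmb8 and Psmb9 had a summit in both p53 replicates (5 genes, 14.5% of all genes), and the same 5 genes had one in all 3 lists (9.93% of all genes). Tapbp was reached by p53 replicate 1 and by PPAR-alpha, and Psmb10 by PPAR-alpha alone. H2-K1, B2m and Nlrc5 had none in any list, so 7 of the 10 genes had at least 1 summit (36.2% of all genes).

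These counts are not 7 separate events. Psmb9, Tap1, Psmb8 and Tap2 stand side by side on chromosome 17 and share their summits, so the 15 summits belong to 4 stretches: Psmb9 to Tap2, Tapbp with its neighbours Zbtb22 and Rgl2, the interval between Ddx39b and H2-D1, and Psmb10. The class I presentation genes also stand among more neighbours, with a median of 3 other protein-coding genes within 20 kb, against 1 for all protein-coding genes. On chromosome 17, where 7 of the 10 lie, 24.6%, 29.6% and 26.3% of the protein-coding genes had a summit within 20 kb in p53 replicates 1 and 2 and in PPAR-alpha. What part the crowding of genes plays in the counts was not tested.

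Counts fell as the window narrowed. Within 5 kb there were 5, 3 and 5 genes with a summit in p53 replicates 1 and 2 and in PPAR-alpha, where all genes gave 14.6%, 18.4% and 14.4%. Tap1, Tap2 and Psmb8 remained in both p53 replicates (9.32% of all genes) and in all 3 lists (6.08%), and 6 genes had a summit in any list (27.4%). Within 1 kb there were 4, 2 and 4 genes, where all genes gave 12.7%, 15.9% and 12.5%. Tap1 and Psmb8 then had a summit in both p53 replicates (7.71% of all genes), Tap1 alone in all 3 lists (4.93%), and 6 genes in any list (24.3%). For p53 replicate 2 at 1 kb, 2 of 10 is close to the share over all genes.

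**Figure D1:**
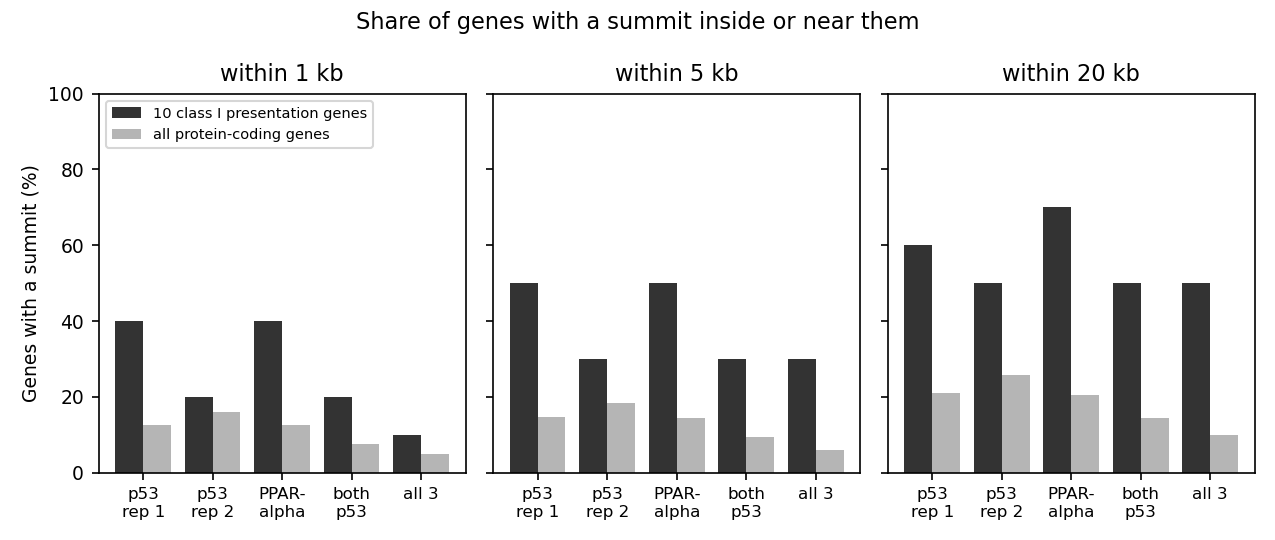
Share of genes, in percent, with a summit inside them or within 1, 5 or 20 kb, for the 10 class I presentation genes (dark bars) and all 21779 protein-coding genes (grey bars), by list. The dark bars rest on 10 genes of which 4 share their summits and reach 70.0% for PPAR-alpha at 20 kb.

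No test was made of these counts, since each factor has 2 libraries or 1 and the genes were chosen with earlier results of these data known. Among them, 1 summit decides several genes at once. Scores limit the counts further. With summits scoring 5 or more, Tapbp stayed in p53 replicate 1 (7.46% of all protein-coding genes had such a summit) and no gene in p53 replicate 2 (9.17% of all genes). The p53 summit that kept Tapbp lies between Tapbp and its neighbour Rgl2. Tap1, Tap2, Tapbp, Psmb8 and Psmb9 stayed in PPAR-alpha (11.1% of all genes). No gene stayed in both p53 replicates (3.65% of all genes) or in all 3 lists (2.35% of all genes). The lists differ in scale as a whole, since 28.7% and 26.3% of all summits in p53 replicates 1 and 2 scored 5 or more, and 48.1% in PPAR-alpha.

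**Figure D2:**
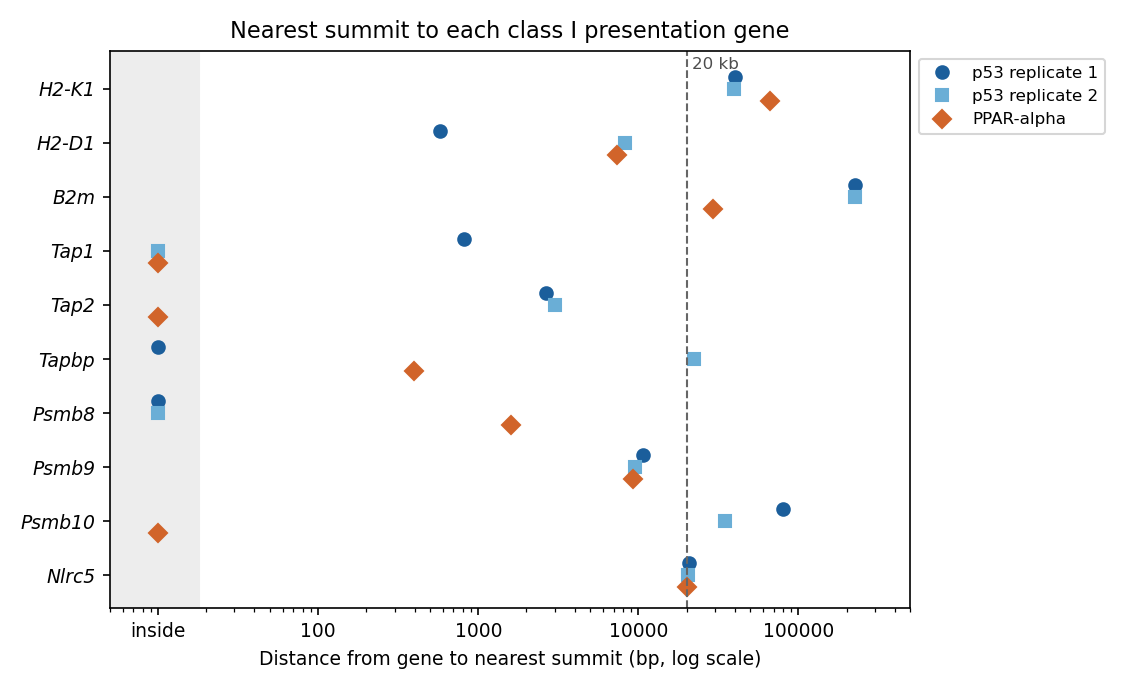
Distance in bp (log axis) from each of the 10 genes to the nearest summit of p53 replicate 1 (circles), p53 replicate 2 (squares) and PPAR-alpha (diamonds). Points in the grey band lie inside the gene, and the dashed line marks 20 kb. For Nlrc5 all 3 points lie just past that line, between 20178 and 20809 bp.

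The peptide transporter and the inducible proteasome. Tap1 (GRCm38 chromosome 17, 34187556 to 34197225) and Psmb9 (34182030 to 34187330) are read away from each other from a shared promoter, with 226 bp between their starts, and Psmb8 (34198195 to 34201454) and Tap2 (34204479 to 34216321) follow downstream of Tap1. Their summits gathered around Psmb8 and the end of Tap1, and the shared promoter of Tap1 and Psmb9 had none close by. The nearest summit to the Tap1 start was that of PPAR-alpha inside Tap1, 9049 bp downstream, followed by that of p53 replicate 2 at 9256 bp. The promoter of Tap1 is printed because it serves both genes (RefSeq, GRCm38.p6, chr17:34187306-34187605, plus strand, 250 bases before the annotated start to 50 after). Capitals mark CCAAT and GGGCGG, on either strand.
Tap1: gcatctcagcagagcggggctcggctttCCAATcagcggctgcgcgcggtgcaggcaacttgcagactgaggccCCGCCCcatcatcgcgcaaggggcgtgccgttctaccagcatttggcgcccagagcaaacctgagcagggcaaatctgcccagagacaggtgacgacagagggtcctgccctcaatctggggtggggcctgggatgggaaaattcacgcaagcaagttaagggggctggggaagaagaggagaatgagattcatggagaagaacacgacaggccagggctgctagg

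In p53 replicate 1, 3 separate peaks fell within 4 kb around Psmb8, which encodes an inducible catalytic subunit. Their summits lay at position 34198041, which is 154 bp before the Psmb8 start (score 2.74), at 34199296 inside Psmb8 (3.34), and at 34201819, 365 bp past its end (3.34). In p53 replicate 2 there were summits at 34196812 inside Tap1, 413 bp before its end (3.62), and at 34201444 inside Psmb8, 10 bp before its end (2.37). PPAR-alpha had a summit at 34196605 inside Tap1, 620 bp before its end (5.30), and a higher one at 34210831 inside Tap2 (13.8). All 3 libraries thus had a summit somewhere between the last part of Tap1 and just past Psmb8, at different bases and with p53 scores no higher than 3.62. The PPAR-alpha summit there lay in Tap1 alone, and only the p53 replicates had summits in or beside Psmb8.

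How near were they to each other? The closest pair joined p53 replicate 2 and PPAR-alpha inside Tap1, 207 bp apart. At the end of Psmb8 the p53 replicates were 375 bp apart. The summit of p53 replicate 1 before the Psmb8 start was 1229 bp from the nearest of p53 replicate 2 and 1436 bp from that of PPAR-alpha. The PPAR-alpha summit inside Tap2 had no p53 counterpart, since the nearest summits of p53 replicates 1 and 2 lay 9012 and 9387 bp away. It was the highest-scoring summit near any of the 10 genes, with 9.43% of the PPAR-alpha list above it. Tap2 had no p53 summit inside it, and its nearest were 2660 and 3035 bp away.

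The promoter of Psmb8 is printed because a summit fell into it, alone among the promoter windows at hand, which cover 8 of the 10 genes (RefSeq, GRCm38.p6, chr17:34197945-34198244, plus strand). Capitals mark the 21 bases centred on the summit of p53 replicate 1.
Psmb8: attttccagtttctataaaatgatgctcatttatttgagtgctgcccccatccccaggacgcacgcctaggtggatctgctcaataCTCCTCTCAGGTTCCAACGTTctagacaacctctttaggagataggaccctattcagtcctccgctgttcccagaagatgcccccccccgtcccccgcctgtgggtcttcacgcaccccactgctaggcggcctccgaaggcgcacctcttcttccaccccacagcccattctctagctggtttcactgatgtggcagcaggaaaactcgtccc
None of the 7 motifs searched, each on both strands, was found in these 300 bases. They were the p53 half-site consensus, the nuclear receptor half-site AGGTCA, the core of the interferon response element, the NF-Y box CCAAT, the CREB site core TGACGT, the GC box GGGCGG and the NF-kB consensus. The absence says only that these letters are not in this window.

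**Figure D3:**
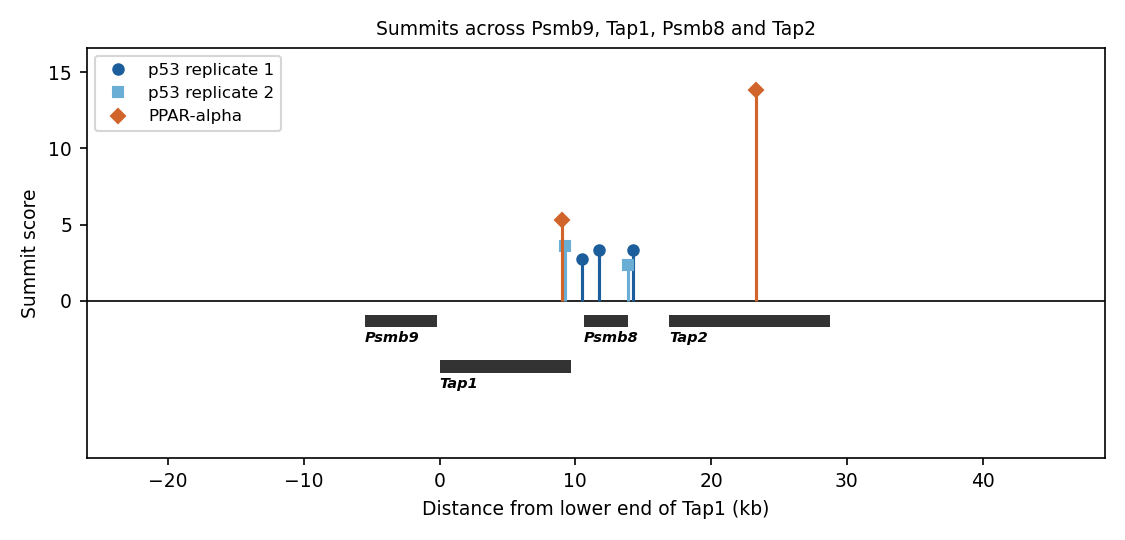
Map of the Psmb9, Tap1, Psmb8 and Tap2 genes (dark bars), with the position of each summit on the x axis in kb from the lower end of Tap1 and its score as the height of the line. Circles are p53 replicate 1, squares p53 replicate 2 and diamonds PPAR-alpha. The 5 p53 summits and 1 of the 2 for PPAR-alpha lie around Psmb8 and the end of Tap1, and the other PPAR-alpha summit stands inside Tap2 at a score of 13.8.

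Psmb9 owed its place in the lists to the 20 kb window alone. Its nearest summits lay 10711, 9482 and 9275 bp away in p53 replicates 1 and 2 and in PPAR-alpha, and each was nearer to Tap1 or Psmb8. The remaining inducible subunit gene, Psmb10, lies on chromosome 8 (105935728 to 105938392). PPAR-alpha had a summit inside it at 105937949, 443 bp downstream of the annotated start (score 4.70, with 48.1% of the list above it). The nearest p53 summits lay 80447 bp (replicate 1) and 34990 bp (replicate 2) away. With 1 PPAR-alpha library this summit has no replicate check.

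Tapasin. Tapbp (chromosome 17, 33919478 to 33929290) lies between Zbtb22, a zinc finger gene, and Rgl2, a regulator of Ral proteins, and had the highest p53 score of the 10 genes. In p53 replicate 1 a summit lay at 33929326, 36 bp past the end of Tapbp (score 9.72, with 5.38% of the list above it). It fell in the short gap between Tapbp and Rgl2, 9.848 kb from the lower end of Tapbp, where Rgl2 begins at 10.036 kb. The summit thus lies just before Rgl2 as well as just past Tapbp. Another lay inside Tapbp at 33920210, 732 bp downstream of the start (1.68, with 96.9% of the list above it). PPAR-alpha had 2 summits of equal score, 12.3, with 11.2% of its list above them. One was at 33929689, 399 bp past the end of Tapbp and 175 bp inside Rgl2, and the other at 33916008, 3470 bp before Tapbp and 168 bp before Zbtb22. The annotated start used for the Rgl2 promoter window lies further inside Rgl2, 205 bp past the summit at 33929689.

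The summits at the boundary of Tapbp and Rgl2 in p53 replicate 1 and PPAR-alpha were 363 bp apart. In p53 replicate 2 nothing lay within 20 kb of Tapbp. Its nearest summit was 22252 bp past the gene, at 33951542 by B3galt4, where p53 replicate 1 also had one 135 bp away. The summit of 9.72 thus belongs to a single p53 library. Both PPAR-alpha summits fell into promoters, and those belong to the neighbours of Tapbp. They are printed with capitals on the 21 bases centred on the PPAR-alpha summit (RefSeq, GRCm38.p6, plus strand, Zbtb22 at chr17:33915926-33916225 and Rgl2 at chr17:33929644-33929943).
Zbtb22: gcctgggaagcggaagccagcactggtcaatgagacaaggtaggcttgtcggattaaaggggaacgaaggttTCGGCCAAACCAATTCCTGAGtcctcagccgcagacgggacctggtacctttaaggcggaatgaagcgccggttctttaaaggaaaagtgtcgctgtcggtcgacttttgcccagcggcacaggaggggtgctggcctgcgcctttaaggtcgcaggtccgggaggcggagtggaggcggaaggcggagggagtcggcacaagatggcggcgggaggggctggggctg
Rgl2: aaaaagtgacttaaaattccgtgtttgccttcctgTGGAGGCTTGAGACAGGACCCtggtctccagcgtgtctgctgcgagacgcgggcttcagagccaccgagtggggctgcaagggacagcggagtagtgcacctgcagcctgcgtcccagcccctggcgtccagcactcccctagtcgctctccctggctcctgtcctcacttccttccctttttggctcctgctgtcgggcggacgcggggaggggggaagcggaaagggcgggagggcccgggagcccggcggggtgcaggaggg
In the Zbtb22 promoter the capitals include a CCAAT that begins at position -169, counted with the start base as 0. The Rgl2 promoter held GGGCGG at positions -19 and 11. A CCAAT is held by 37.4% and a GGGCGG by 35.7% of all 32851 promoter windows of this length. AGGTCA was not found in either window.

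Heavy chains and their light chain. H2-D1 (chromosome 17, 35263094 to 35267497) and H2-K1 (chromosome 17, 33996012 to 34000619) encode the classical heavy chains, and they differed in the lists. At H2-D1, p53 replicate 1 had a summit at 35262519, 575 bp before the start (score 2.18, with 87.6% of the list above it). A summit of p53 replicate 2 at 35254789 (2.37) and one of PPAR-alpha at 35255788 (3.06) lay 8305 and 7306 bp before H2-D1 and were nearer to Ddx39b, an RNA helicase gene whose end lay 1082 and 2081 bp from them. They were 999 bp apart, and the summit of p53 replicate 1 was 7730 and 6731 bp from them. H2-D1 was therefore in all 3 lists through 3 low-scoring summits that did not meet.

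At H2-K1 no list had a summit within 20 kb. Its nearest were 39931, 39544 and 66323 bp away in p53 replicates 1 and 2 and in PPAR-alpha. Both promoters are printed to show how alike they are (RefSeq, GRCm38.p6, H2-D1 at chr17:35262844-35263143 on the plus strand and H2-K1 at chr17:34000298-34000597 on the minus strand). Capitals mark CCAAT, on either strand, and the NF-kB consensus.
H2-D1: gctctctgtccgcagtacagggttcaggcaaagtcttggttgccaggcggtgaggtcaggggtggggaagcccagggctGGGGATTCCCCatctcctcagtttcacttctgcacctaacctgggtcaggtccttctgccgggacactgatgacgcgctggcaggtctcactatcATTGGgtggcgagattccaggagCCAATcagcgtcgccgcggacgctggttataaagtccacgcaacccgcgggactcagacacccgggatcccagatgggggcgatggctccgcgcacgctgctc
H2-K1: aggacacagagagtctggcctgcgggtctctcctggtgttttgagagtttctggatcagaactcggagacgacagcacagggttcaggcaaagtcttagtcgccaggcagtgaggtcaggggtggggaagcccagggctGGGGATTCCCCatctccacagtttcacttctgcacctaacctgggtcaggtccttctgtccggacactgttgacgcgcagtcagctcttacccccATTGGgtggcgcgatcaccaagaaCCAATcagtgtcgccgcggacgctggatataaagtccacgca
Where they align, 211 of 240 positions were the same, or 87.9%. Each held 1 forward and 1 reverse CCAAT, the receptor half-site AGGTCA outside the capitals, and a stretch that matches the NF-kB consensus at 2 overlapping positions on both strands. How the authors treated reads that match several places is not given in the sources used here, and class I genes have close copies, so values at both genes are uncertain to that extent. The part of such reads in the difference between H2-D1 and H2-K1 was not tested.

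B2m (chromosome 2, 122147687 to 122153082) encodes the light chain of every class I molecule and had no summit within 20 kb. The nearest summit was that of PPAR-alpha at 122118258, 29429 bp away (score 2.57), and the nearest p53 summits lay 224784 and 224339 bp away in replicates 1 and 2. Its promoter is printed because it holds 3 of the motifs although no library had a summit near it (RefSeq, GRCm38.p6, chr2:122147437-122147736, plus strand). Capitals mark the core of the interferon response element, the NF-kB consensus and CCAAT, in that order from the left, the last 2 on the reverse strand.
B2m: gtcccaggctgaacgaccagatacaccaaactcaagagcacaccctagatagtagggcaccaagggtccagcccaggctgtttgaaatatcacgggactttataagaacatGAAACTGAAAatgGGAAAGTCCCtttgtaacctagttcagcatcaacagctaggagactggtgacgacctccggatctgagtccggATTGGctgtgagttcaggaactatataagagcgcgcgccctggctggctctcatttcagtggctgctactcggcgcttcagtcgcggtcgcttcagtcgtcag

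Across the 8 genes with a promoter sequence at hand, CCAAT was found in 6 (37.4% of all promoters), the NF-kB consensus in 3 (4.51%), which were H2-K1, H2-D1 and B2m, and the interferon response core in B2m alone (3.44%). AGGTCA was found in 3 (16.3%), namely H2-K1, H2-D1 and Psmb10, and GGGCGG in 3 (35.7%), namely Tap1, Psmb9 and Tapbp. The p53 half-site consensus (8.36% of all promoters) and TGACGT (7.51%) were found in none of the 8. The windows of Tap1 and Psmb9 overlap by 275 bases, so their matches are the same letters. Those of H2-K1 and H2-D1 are near copies (87.9% the same where they align), so their NF-kB and AGGTCA matches are not separate cases. These matches describe the windows and are not binding sites.

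The transactivator. Nlrc5 (chromosome 8, 94434335 to 94527272) fell just outside the rule. All 3 lists had a summit before it, at 94413526 in p53 replicate 1 (score 3.99), 94413895 in p53 replicate 2 (1.83) and 94414157 in PPAR-alpha (4.13). They lay 20809, 20440 and 20178 bp from Nlrc5 and were nearer to Herpud1, a gene of the endoplasmic reticulum stress response. The p53 replicates were 369 bp apart there, and PPAR-alpha was 262 bp from replicate 2. On the near side of the 20 kb limit, the farthest summit from its gene was that of p53 replicate 1 at 14489 bp from Psmb9.

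Near H2-D1, 3 of the 4 summits just outside the limit scored higher than those inside it. At the start of Ddx39b, between 21200 and 21347 bp from H2-D1, p53 replicate 1 had a summit at 35241747 (score 6.24), p53 replicate 2 at 35241894 (12.3) and PPAR-alpha at 35241892 (9.995). PPAR-alpha and p53 replicate 2 were 2 bp apart there, and p53 replicate 1 lay 147 bp from replicate 2. A further summit of p53 replicate 2, at 35242485, scored 2.37. The 3 lists therefore met more closely at Ddx39b than at any of the 15 summits counted for the class I presentation genes.

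**Figure D4:**
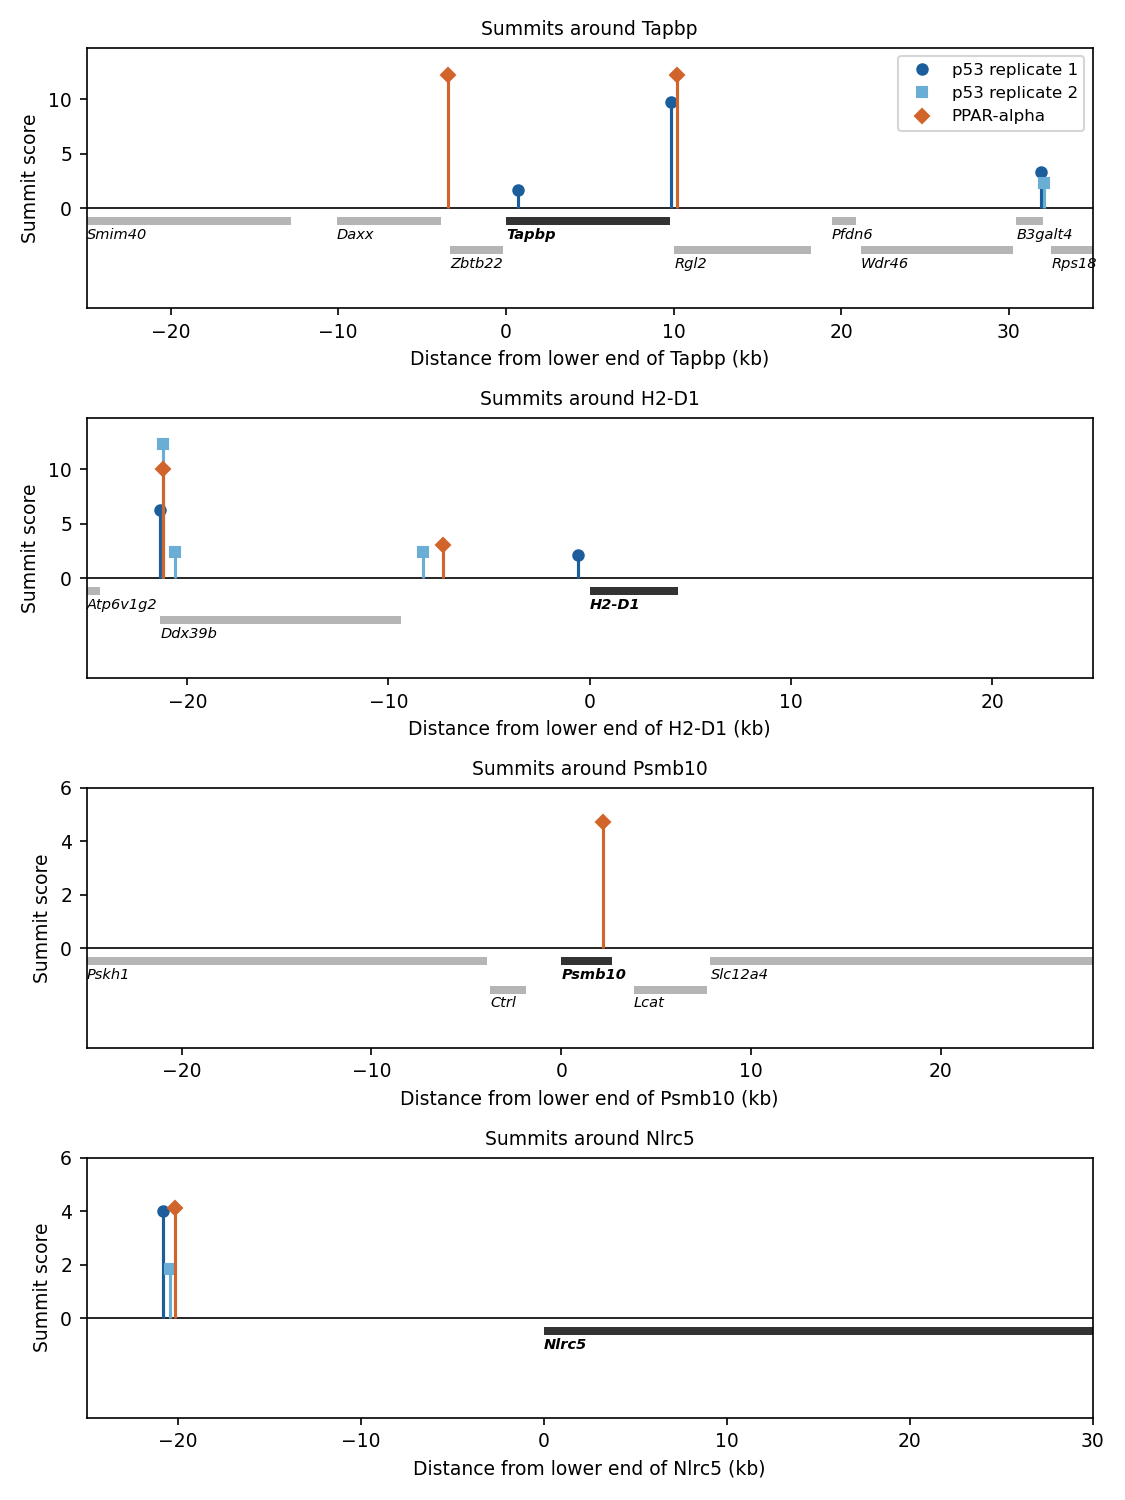
Maps around Tapbp, H2-D1, Psmb10 and Nlrc5, with distance in kb from the lower end of the named gene on the x axis and summit score as height. Dark bars are the class I presentation genes, grey bars other protein-coding genes. Circles are p53 replicate 1, squares p53 replicate 2 and diamonds PPAR-alpha. The tallest lines in the H2-D1 panel stand at the start of Ddx39b, with scores of 6.24, 12.3 and 9.995, and those near Nlrc5 stand past 20 kb.

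Did the libraries share their summits at these genes? None of the 15 summits had a summit of another list within 100 bp (0%, exact Clopper-Pearson 95% interval 0 to 21.8%), where 27.4% of all 12445 summits had one. At 500 bp 6 of the 15 did (40.0%, 16.3 to 67.7%), where 54.0% of all summits did, and none had summits of both other lists, where 20.2% of all summits did. The 6 formed 3 pairs: p53 replicate 2 with PPAR-alpha inside Tap1, both p53 replicates at the end of Psmb8, and p53 replicate 1 with PPAR-alpha at the end of Tapbp. The intervals cover counting error only and treat summits as independent. They are not, since a match counts both of its summits, so the intervals are a description and no test. At a median score of 3.04 and 2.37, p53 summits near these genes were under the medians of their lists, 3.99 and 3.62. Those of PPAR-alpha had a median of 8.78, against 4.70 for the list. With 6, 3 and 6 summits these medians are descriptions.

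**Figure D5:**
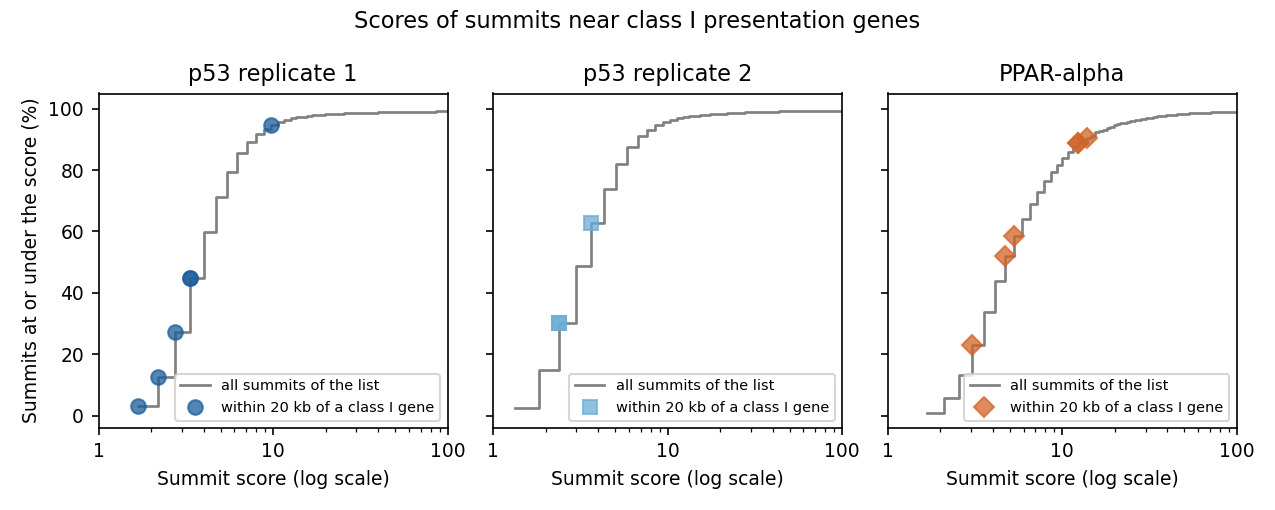
Share of each list at or under a given score, in percent (grey line, log score axis), with the summits within 20 kb of a class I presentation gene as points. In p53 replicate 1, 5 of the 6 points lie at scores of 3.34 or less and 1 at 9.72. The 3 of p53 replicate 2 lie at 2.37 and 3.62, and 3 of the 6 PPAR-alpha points lie at 12.3 or more. Points of equal score overlie each other.

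Other genes of the pathway were read the same way, from 5 gene lists and within 20 kb, where 20.9%, 25.8% and 20.5% of all protein-coding genes had a summit in p53 replicates 1 and 2 and in PPAR-alpha. Regulators of class I transcription had summits at 7, 13 and 9 of 16 genes in p53 replicates 1 and 2 and in PPAR-alpha. Of them 6 had one in both p53 replicates (14.5% of all genes) and 4 in all 3 lists (9.93% of all genes). At Rfxank, a subunit of the RFX complex, the 3 lists met within 24 bp, 48 to 72 bp from the gene, with scores of 9.72, 13.3 and 4.13 in p53 replicates 1 and 2 and in PPAR-alpha. Borcs8 lies within 1 kb of the same summits. At Creb1, which encodes the CREB factor, they met within 86 bp, 618 to 704 bp from the gene, with 8.81, 13.3 and 35.03. Inside Nfyc, a subunit of NF-Y, they met within 36 bp, with 2.18, 5.08 and 7.88. Irf1, an interferon response factor gene, had summits in all 3 lists that lay 7226 bp apart at the closest. These genes were named for their scores and their presence in all lists, and the other RFX and NF-Y genes were in fewer lists. Rfx5 had summits in p53 replicate 1 (highest score 6.24, 13412 bp from the gene) and inside it in PPAR-alpha (4.70). Nfya had 5.88 in p53 replicate 2 and 5.91 in PPAR-alpha, Rfxap had 2.97 in p53 replicate 2 alone, and Nfyb had none.

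Peptide loading and trimming genes had summits at 3, 4 and 4 of 7 in p53 replicates 1 and 2 and in PPAR-alpha. In all 3 lists there were 3 genes (9.93% of all genes). These were Tapbpl, a relative of tapasin (highest scores 4.70, 8.48 and 8.57), Lnpep, an aminopeptidase gene (5.45, 3.62 and 5.91), and Calr, the chaperone calreticulin (3.34, 4.33 and 4.13). For Calr the 3 scores come from separate places, 9628 bp away, 10266 bp away on the other side and inside the gene, and the closest set of 1 summit from each list spanned 390 bp near Dand5 and Gadd45gip1. Canx, the chaperone calnexin, had 5.08 in p53 replicate 2 and 4.13 in PPAR-alpha. Pdia3, Erap1 and Sec61a1 had none. Near Tapbpl the closest set of 1 summit from each list spanned 176 bp, with no protein-coding gene within 1 kb.

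Proteasome activator and standard catalytic subunit genes had summits at 1, 5 and 1 of 8. Psmb5, the standard counterpart of Psmb8, had them in both p53 replicates (4.70 at 10216 bp and 2.97 at 273 bp), and Psme3, an activator gene, in p53 replicate 2 (4.33) and PPAR-alpha (3.58). Psmb6 and Psmb7, the standard counterparts of Psmb9 and Psmb10, had none. Psmb11, the catalytic subunit of cortical thymic epithelium, had summits in p53 replicate 2 alone, of which the highest (2.97) is the one just given for Psmb5 and lies 7042 bp from Psmb11.

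Of the class I genes and relatives, 15 were matched, and H2-T10 was listed but not matched. In p53 replicates 1 and 2 and in PPAR-alpha, 1, 3 and 2 of the 15 had summits. In any list 3 had one, where 36.2% of all protein-coding genes did. The 12 with none included H2-Q1, H2-Q2, H2-Q4, H2-Q6, H2-Q7, H2-Q10 and H2-T23, and also H2-Ke6, which encodes a steroid dehydrogenase. The 3 with summits were Cd1d1, a lipid-presenting molecule (3.99 and 2.97 in p53 replicates 1 and 2), H2-M3, which presents formylated peptides (3.62 in p53 replicate 2 and 2.57 in PPAR-alpha), and Mr1, which presents vitamin metabolites (2.37 in p53 replicate 2 and 4.13 in PPAR-alpha). Class II presentation genes had summits at 3, 1 and 2 of 9. H2-DMa, a peptide exchange factor, was in all 3 lists (8.81, 5.08 and 5.91), through summits that Brd2 shares, and H2-DMb2 was reached in p53 replicate 1 (3.34, 7411 bp away) and PPAR-alpha (3.06, 13754 bp away) by summits that lie inside H2-DMa. H2-Aa, H2-Ab1, H2-Eb1 and Cd74 had none.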

How the data were processed

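ChIP-seq was done on p53 AD/AD thymus. The authors deposited 1 list of summits per ChIP library. The deposited score was read as a −log10 p- or q-value from the form and range of the lists, since no label states it. The submitters' processing notes list MACS2 2.1.2, Bowtie2 2.3.4.2 and Picard 2.9.0 without roles. Not given in the sources used here are the calling threshold, the control and the read numbers, so depth is unknown.

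The submitters' processing notes name the human build GRCh38 for this mouse tissue. Positions were read on GRCm38.p6, where 49.2%, 49.0% and 42.0% of the summits of p53 replicate 1, p53 replicate 2 and PPAR-alpha lay no more than 1 kb from an end of a protein-coding gene, against 7.59%, 7.01% and 7.22% after moving them up by 20 kb. Positions count from 1.

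Genes came from the RefSeq table, without 108 protein-coding genes whose coordinates lie off the assembled chromosomes. Distances run from the gene body, as 0 inside it. Starts and promoter windows came from RefSeq. Motifs were searched as exact letters. A summit was matched in another list when one lay within 100 bp. Intervals are exact Clopper-Pearson at 95%. Work used Python 3.11.15, pandas 2.3.3, scipy 1.17.1 and Biopython 1.88. The gene assignment was tested on simulated data. The 10 genes and the lists were chosen with earlier results of these data known. All 10 genes were described; of each further list up to 4 genes with summits in at least 2 lists were named, highest score first, and Psmb11, Rfx5, Rfxap, Nfya and the genes with none were named after their values were seen.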

Additional observations from a re-analysis of the deposited data

How the results depend on the processing

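Counts of genes with a summit moved with distance, score and the rule that ties a summit to a gene. Within 5 kb the count was 3 in p53 replicate 2, in both p53 replicates and in all 3 lists. Within 1 kb it was 2 in p53 replicate 2, 4 in PPAR-alpha, 2 in both p53 replicates and 1 in all 3 lists. At scores of 5 or more it was 1 in p53 replicate 1 and 0 in p53 replicate 2, in both p53 replicates and in all 3 lists. At scores of 10 or more it was 0 in each of those sets and 4 in PPAR-alpha. Those 4 were Tap1, Tap2 and Psmb8, through the summit inside Tap2, and Tapbp, through the summits in the Zbtb22 and Rgl2 promoters. The share of all genes at this score was not counted, and 16.0% of all PPAR-alpha summits scored 10 or more. Counting only genes nearest to their summit, an alternative chosen after seeing the data, gave 3 in p53 replicate 1, 2 in p53 replicate 2, 3 in PPAR-alpha, 1 in both p53 replicates and 0 in all 3 lists. At 25 kb, also chosen afterwards, the counts were 7, 7 and 8, with Nlrc5 in each list. The summits that added Nlrc5 were nearer to Herpud1, and the one that added Tapbp in p53 replicate 2 lay by B3galt4. The share of all genes was not counted at 25 kb or by the nearest-gene rule, so these counts have no background. Leaving out 1 p53 replicate gave 5 to 6 genes for p53 and 5 to 6 shared with PPAR-alpha. Boundary distances and leaving out dense runs of summits did not change a count. Of the 15 summits, 6 met another list at 500 bp and 0 at 50 and 200 bp. Gene and motif pairs fell to 7 in the window from 100 bases before the start, against 16 in the full window; the shorter window has fewer bases to match. No paired analysis was possible because p53 and PPAR-alpha share 1 replicate number at most and no result comes from a test. Unknown read numbers limit what an absent summit shows.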
